A study of Mus musculus with 4 samples.

Results

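Fibroblast nuclei of the mouse heart that carried RNA of Postn, Cilp, Ltbp2 and Nox4, 4 genes known from activated fibroblasts, were taken as one set of nuclei (the members). A nucleus was a member when it passed a fibroblast gate and held at least 3 unique molecular identifiers (UMIs, each standing for 1 captured RNA molecule) of these 4 genes together. The gate required at least 300 detected genes, at most 5% mitochondrial UMIs, under 2.5% of UMIs from the cardiomyocyte genes Ttn, Ryr2, Myh6 and Rbm20, and at least 4 UMIs of the fibroblast genes Pdgfra, Dcn, Col1a2, Col3a1, Gsn and Abca8a. It allowed at most 3 UMIs of the endothelial genes Flt1, Ptprb and Cyyr1 and at most 2 of the immune genes Ptprc, Mrc1 and F13a1. Of 45483 nuclei kept, 13310 passed the gate and 2072 were members. They are described against the 8141 gated nuclei with 0 UMIs of the 4 genes, called 0-UMI fibroblasts. Since measured counts chose both sets, every contrast between them is a description without a test.

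The data are single-nucleus RNA counts from 4 libraries, 1 for each genotype, each made from 3 pooled hearts of C57BL/6 mice aged 6 months. The genotypes were wild type (WT), heterozygous for an Rbm20 mutation (RBM20 het), homozygous for it (RBM20 homo), and homozygous with gene editing correction (the corrected library). The mutation, the editing agent beyond the 2 added features described at the end, the dose and the time of treatment are not given in the sources used here, and the sexes of the mice are not given either. Each genotype rests on n = 1 library of pooled hearts, so the spread between hearts is unknown and differences are stated between libraries, not genotypes. Values in brackets are 95% intervals that cover counting error only, and the 4 libraries held 37180791, 42375104, 52370368 and 51422458 UMIs in the order WT, RBM20 het, RBM20 homo and corrected. The same order is used wherever 4 values are listed without names. In all, 223 cell barcodes occurred in more than 1 library, and none was a member in both libraries of a pair. Whether a member's barcode was among them was not checked.

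Cardiac fibroblasts keep up the collagen and elastic matrix of the heart, and in a strained or injured heart some of them enter an activated state with more matrix synthesis. Postn encodes periostin, a secreted protein that links collagen and cell-surface integrins and is the usual mark of that state. Cilp encodes a secreted matrix protein that binds TGF-beta, Ltbp2 a fibrillin-binding protein of elastic fibres, and Nox4 an oxidase that makes hydrogen peroxide and is induced by TGF-beta. Periostin RNA is not exclusive to fibroblasts, since mural cells of vessels also carry it.

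The stretches of 250 bases just upstream of the Postn and Cilp start sites are printed because these 2 genes name the activated state and both hold the same TATA-box letters close to the start. They are from RefSeq on GRCm38.p6, 5′ to 3′ on the gene's own strand, which is the plus strand for both, and capitals mark TATATAA.
Postn, chr3:54360857-54361106: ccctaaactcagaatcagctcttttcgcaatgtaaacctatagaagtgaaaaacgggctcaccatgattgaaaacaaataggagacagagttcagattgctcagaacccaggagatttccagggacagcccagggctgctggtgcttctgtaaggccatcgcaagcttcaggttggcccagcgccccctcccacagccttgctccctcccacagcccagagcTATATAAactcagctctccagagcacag
Cilp, chr9:65264930-65265179: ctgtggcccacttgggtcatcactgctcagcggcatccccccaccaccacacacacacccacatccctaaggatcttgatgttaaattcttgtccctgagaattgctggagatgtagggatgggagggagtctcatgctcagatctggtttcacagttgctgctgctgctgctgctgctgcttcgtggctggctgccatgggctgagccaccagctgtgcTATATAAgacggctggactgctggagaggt
TATATAA lay at bases -28 to -22 from the Postn start and at -30 to -24 from the Cilp start. The same letters on the gene strand occurred in 2.05% of 32851 promoter windows of this length. The AP-1 letters TGANTCA (6.75% of windows, both strands), the TEAD letters GGAATG (12.6%) and the SMAD letters CAGACA (17.1%) were not in these 2 windows, and the Nox4 window held CAGACA once, on the opposite strand at -142 to -137. Postn has another RefSeq start at chr3:54359267, whose window of 250 bases held none of these letters. Within 50 bases of that start lay 0 starts of GENCODE coding transcripts, against 4 for the printed one. A match of letters is a description and shows no factor at the site. In the GENCODE vM21 annotation of GRCm38 the genes lie at chr3:54361109-54391037 (Postn, ENSMUSG00000027750), chr9:65265180-65280605 (Cilp, ENSMUSG00000042254), chr12:84783212-84876532 on the minus strand (Ltbp2, ENSMUSG00000002020) and chr7:87246096-87398710 (Nox4, ENSMUSG00000030562).

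Members were a small share of fibroblast nuclei in 3 libraries and a large one in RBM20 homo. They made up 94 of 2292 fibroblast nuclei in WT (4.10% [3.33 to 4.996]), 198 of 2907 in RBM20 het (6.81% [5.92 to 7.79]), 1589 of 3797 in RBM20 homo (41.8% [40.3 to 43.4]) and 191 of 4314 in the corrected library (4.43% [3.83 to 5.08]). The RBM20 homo share was 10.2 times the WT share [8.34 to 12.5] and 9.45 times the corrected share [8.19 to 10.9]. The RBM20 het share was 1.66 times the WT share [1.31 to 2.11]. It was 1.99 times [1.53 to 2.59] with nuclei carrying markers of other cell types left out. The ratio was 1.87 [1.42 to 2.46] without Postn in the rule and 1.57 [1.02 to 2.42] with each nucleus thinned to 1500 UMIs. It did not differ from 1 beyond counting error in some settings. These were 1.41 [0.846 to 2.34] without Nox4, 1.22 [0.817 to 1.83] with at least 5 rule UMIs, 1.02 [0.654 to 1.59] with a Postn UMI required and 1.53 [0.739 to 3.17] thinned to 1000 UMIs. In every other setting it was above 1 beyond counting error. Among these it was 1.29 [1.11 to 1.51] with at least 2 rule UMIs and 1.74 [1.08 to 2.81] with 2 or more rule genes required. The corrected and WT shares differed by less than counting error, with a ratio of 1.08 [0.848 to 1.37]. With 2 or more rule genes required, a setting added after seeing the data, that ratio was 1.73 [1.10 to 2.72]. In the other settings its interval held 1. The share uses the rule's own counts and, as a share of gated nuclei, also depends on how many other fibroblast nuclei each library held. As a share of all nuclei kept, members were 1.001%, 2.06%, 13.8% and 1.28%.

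**Figure D1:**
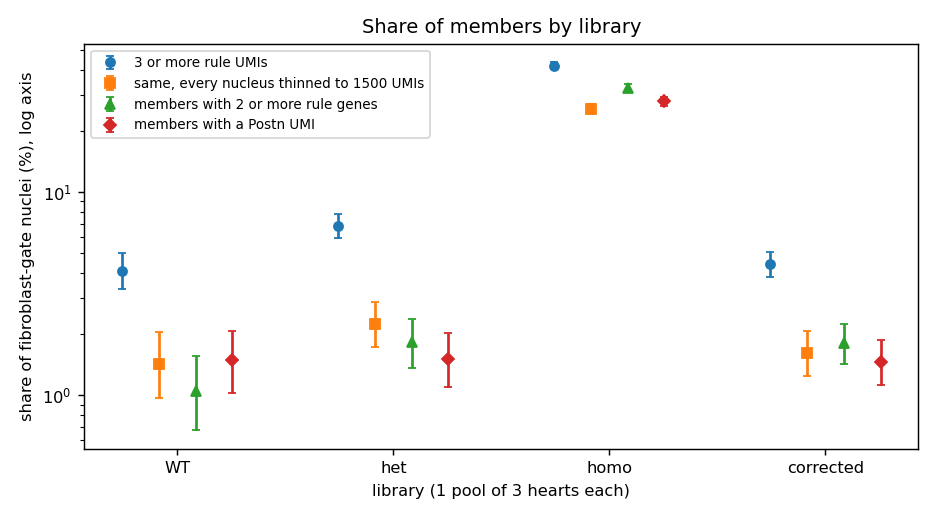
Share of fibroblast nuclei in each library (percent, log axis) with 3 or more rule UMIs, the same after thinning each nucleus to 1500 UMIs, and the shares that were members with 2 or more rule genes or with a Postn UMI; bars are 95% Clopper-Pearson intervals of counting error. RBM20 homo stood at 41.8% unthinned and 25.6% thinned, and the other 3 libraries at 1.43% to 6.81% on the same 2 measures.

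Nuclei with more UMIs reach 3 rule UMIs more easily, and members were deeper than the nuclei around them. Their median was 3710, 3537.5, 3362 and 3195 UMIs, against 2428, 2625, 2482 and 2305 in 0-UMI fibroblasts. With every nucleus thinned to 1500 UMIs and shallower ones left out (173, 172, 196 and 452 fibroblast nuclei), the shares were 30 of 2095 in WT (1.43%), 61 of 2710 in RBM20 het (2.25%), 895 of 3502 in RBM20 homo (25.6%) and 62 of 3827 in the corrected library (1.62%). Thinned, the RBM20 homo share was 17.8 times the WT share [12.5 to 25.6] and 15.8 times the corrected share [12.2 to 20.3]. The RBM20 homo members also carried more rule RNA per nucleus. Nuclei with at least 10 rule UMIs numbered 11, 15, 461 and 13, which is 11.7% [5.99 to 19.97], 7.58% [4.30 to 12.2], 29.0% [26.8 to 31.3] and 6.81% [3.67 to 11.4] of members, and the highest counts in 1 nucleus were 25, 29, 87 and 27.

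Free RNA in the droplets can add UMIs to any nucleus, so the same count was taken in nuclei that should lack these genes. At least 3 rule UMIs were found in 0.0915%, 0%, 0.324% and 0.0293% of cardiomyocyte-gate nuclei, whose median depth was 4900, 5704, 5887.5 and 4585 UMIs. In endothelial-gate nuclei the shares were 0.233%, 0.355%, 1.31% and 0.266%, at medians of 1749, 1806, 1800.5 and 1647 UMIs. In immune-gate nuclei they were 0%, 0%, 1.45% and 0.245%, at medians of 2006, 1926, 2135 and 1883 UMIs. Nuclei with pericyte markers were not part of this background and are given below. Under this filter the background shares were below the share in fibroblast nuclei in every library, and they were highest in RBM20 homo. A single Postn UMI was far more common in that background, in 1.49%, 1.16%, 11.5% and 1.64% of cardiomyocyte-gate nuclei.

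The 4 rule genes did not choose the same kind of nucleus in each library. Postn stood at 297, 171, 794 and 269 CPM in members (counts per 1e6 non-mitochondrial UMIs, from UMIs summed over the nuclei of a library), and 36.2%, 22.2%, 66.8% and 33.0% of members had a Postn UMI. Cilp stood at 34.5, 76.2, 196 and 84.7 CPM and was seen in 7.45%, 11.6%, 37.8% and 18.3% of members. Ltbp2 stood at 7.96, 73.8, 151 and 105 CPM and was seen in 3.19%, 14.6%, 34.5% and 20.9%. Nox4 stood at 1019, 837, 1032 and 825 CPM, with a UMI in 83.0%, 87.9%, 82.6% and 80.1% of members. These counts chose the members, so the levels are a description. Over all fibroblast nuclei Nox4 stood at 126, 139, 569 and 111 CPM, with a UMI in 17.6%, 21.9%, 50.6% and 16.97% of nuclei, and Postn at 36.0, 36.6, 429 and 34.6 CPM.

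Members that rested on Nox4 RNA alone were a larger share outside RBM20 homo. Members with UMIs of Nox4 and of none of the other 3 genes were 55 of 94 in WT (58.5%), 127 of 198 in RBM20 het (64.1%), 272 of 1589 in RBM20 homo (17.1%) and 91 of 191 in the corrected library (47.6%). Members with 2 or more of the 4 genes numbered 24, 53, 1234 and 78, and members with all 4 numbered 0, 4, 137 and 2. Nox4 had the highest count of the 4 genes in 74.5% of WT members [64.4 to 82.9], 75.3% of RBM20 het members [68.6 to 81.1], 51.5% of RBM20 homo members [49.0 to 54.0] and 69.1% of corrected members [62.0 to 75.6]. Postn led in 22.3%, 15.2%, 31.6% and 17.3%. UMI counts of different genes depend on transcript length and priming, so these shares describe which counts chose a nucleus and not which gene was more active.

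**Figure D2:**
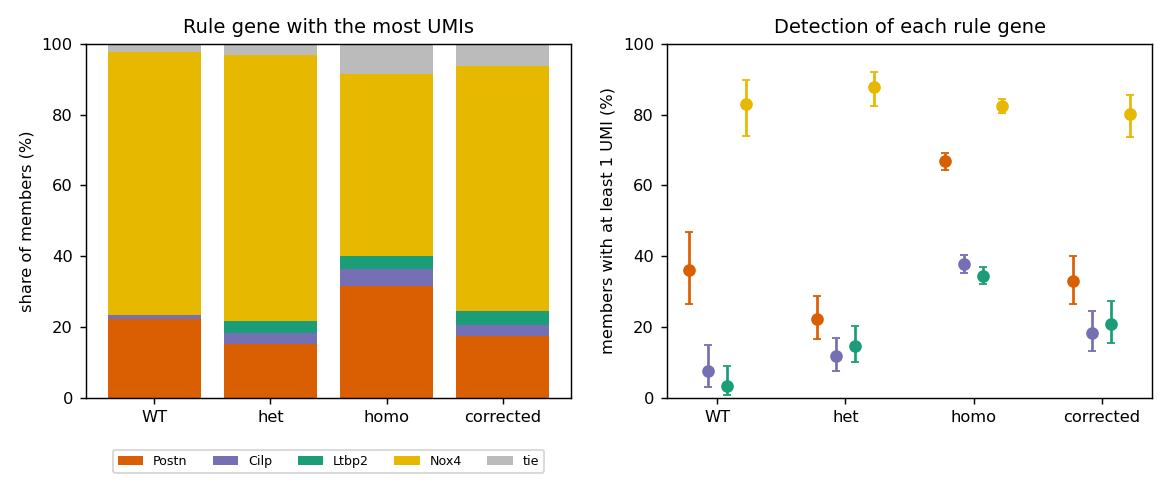
Left, members of each library by the rule gene with the most UMIs (percent of members, 1 stacked bar per library, grey for ties); right, percent of members with at least 1 UMI of each rule gene, in the same colours, with 95% intervals of counting error. Nox4 led in 74.5%, 75.3%, 51.5% and 69.1% of members of WT, RBM20 het, RBM20 homo and the corrected library.

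Within RBM20 homo, nuclei with a Postn UMI held each of the other rule genes more often than nuclei without one. Over all its fibroblast nuclei, Cilp was seen in 30.4% of nuclei with a Postn UMI and 13.8% of those without, Ltbp2 in 28.7% against 12.2%, and Nox4 in 60.5% against 44.3%. Deep nuclei hold more of every gene, and after thinning to 1500 UMIs the pairs were 19.2% against 9.84%, 18.4% against 8.35%, and 46.6% against 38.6%. Nox4 differed less by the other 2 genes: thinned, it was seen in 45.3% of RBM20 homo nuclei with Cilp and 40.3% without, and in 45.2% with Ltbp2 and 40.4% without, with overlapping intervals. Unthinned, Cilp was also seen more often with Postn than without in the other libraries, where few nuclei held both. Cilp was seen in 2.92% of nuclei with Postn and 0.603% without in WT, in 5.47% and 1.18% in RBM20 het, and in 7.17% and 1.40% in the corrected library. The WT value rests on 4 nuclei with both genes, and its intervals overlapped. Thinned, the corrected library still had 6.25% and 0.808%. RBM20 het then had 1.19% and 0.609% (1 of 84 nuclei with Postn) and WT 3.57% and 0.490% (2 of 56), both with overlapping intervals. Nox4 was seen in 46.5% of nuclei with Cilp and 21.5% without in RBM20 het, and in 41.3% and 16.5% in the corrected library. Thinned, the values were 35.3% and 14.4% in RBM20 het and 24.3% and 12.3% in the corrected library, with overlapping intervals. With Postn, Nox4 was not seen clearly more often than without it in WT and the corrected library, and it was seen less often in RBM20 het. The values were 22.6% against 17.3% in WT, 14.4% [9.88 to 20.1] against 22.4% [20.9 to 24.1] in RBM20 het and 16.7% against 16.98% in the corrected library. Thinned, RBM20 het had 9.52% against 14.7%, with overlapping intervals. These are nuclei of 1 library each and give no replicate error.

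The label of activated fibroblast was checked against markers of other cell types, and the members led by Postn in 3 libraries went against it. The 10 pericyte markers (among them Rgs5, Pdgfrb, Abcc9, Kcnj8 and Notch3; pericytes are the mural cells of capillaries) summed to 3334 CPM in the 21 Postn-led members of WT, 4027 in the 30 of RBM20 het and 4363 in the 33 of the corrected library. In the 502 Postn-led members of RBM20 homo the sum was 398 CPM. Nox4-led members had 1084, 451, 486 and 1262 CPM, and 0-UMI fibroblasts 1097, 1593, 1395 and 1194 CPM. Abcc9, a potassium channel regulator typical of pericytes, stood at 1007, 1246, 82.6 and 1638 CPM in Postn-led members, while the fibroblast receptor gene Pdgfra stood at 264, 280, 532 and 241 CPM there and at 544, 451, 559 and 503 CPM in Nox4-led members. At least 3 UMIs of 7 markers of other types (among them Rgs5, Abcc9, Kcnj8, Myh11 and Msln, summed) were found in 9 of 21 Postn-led members of WT (42.9%), 14 of 30 of RBM20 het (46.7%), 23 of 502 of RBM20 homo (4.58%) and 18 of 33 of the corrected library (54.5%). Among Nox4-led members they were found in 15.7%, 4.03%, 6.23% and 15.2%.

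**Figure D3:**
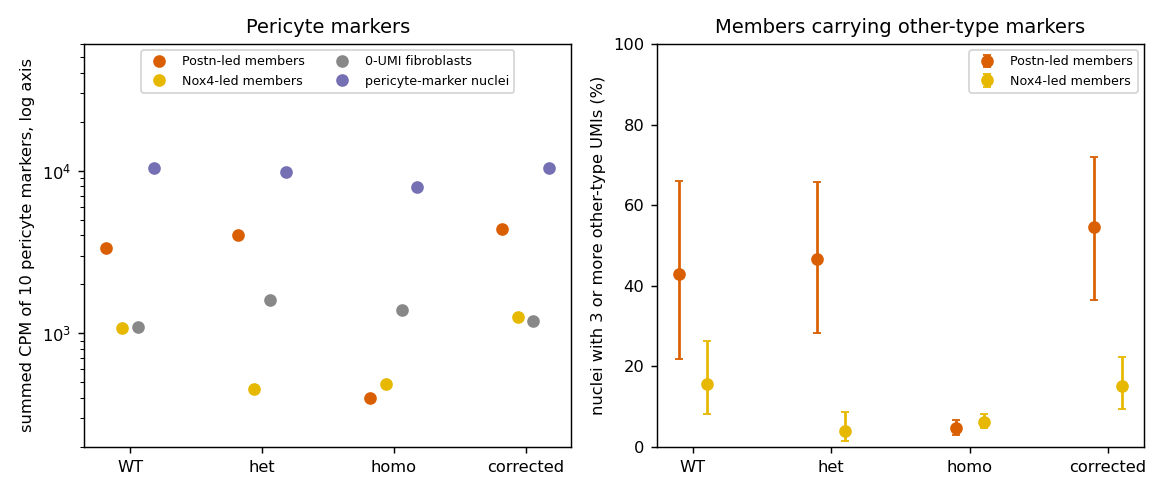
Left, summed CPM of 10 pericyte markers (log axis) in Postn-led members, Nox4-led members, 0-UMI fibroblasts and nuclei with at least 5 pericyte-marker UMIs outside the gate, by library; right, percent of Postn-led and Nox4-led members with at least 3 UMIs of markers of other types, with 95% intervals of counting error. Postn-led members stood at 3334, 4027 and 4363 CPM in WT, RBM20 het and the corrected library and at 398 CPM in RBM20 homo.

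Nuclei outside the fibroblast gate with at least 5 UMIs of the pericyte markers carried Postn in all 4 libraries. They numbered 522, 511, 389 and 1060, and a Postn UMI was seen in 23.6%, 23.7%, 20.6% and 21.7% of them, with Postn at 187, 146, 129 and 144 CPM. Nox4 in the same nuclei stood at 16.2, 13.6, 31.9 and 18.8 CPM. At least 3 rule UMIs were found in 4.41%, 1.76%, 2.31% and 1.70% of them, against 4.10%, 6.81%, 41.8% and 4.43% of fibroblast nuclei. In WT the intervals of these shares overlapped (4.41% [2.81 to 6.54] and 4.10% [3.33 to 4.996]). Whether Postn-led members of WT, RBM20 het and the corrected library were fibroblasts, pericytes or droplets with both was not tested. The 3 small sets are therefore called by their rule below. Activated fibroblast is kept for RBM20 homo only, where the pericyte sum of all members and of Postn-led members was the lowest. Fibroblast gate genes went both ways in members. Pdgfra stood at 485, 435, 540 and 452 CPM, Col1a2 at 305, 321, 559 and 351 CPM, and Abca8a at 2947, 3611, 2255 and 2814 CPM. The pericyte sum of Nox4-led members did not set RBM20 homo apart, at 451 CPM in RBM20 het and 486 CPM in RBM20 homo. Nuclei among the highest doublet scores made up 4.26%, 2.02%, 5.66% and 12.6% of members, against 2.92%, 3.72%, 5.19% and 6.51% of all fibroblast nuclei.

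Other marker lists were summed in the same way. All 10 pericyte markers had UMIs in the members of each library, with sums of 1541, 1018, 461 and 1759 CPM. The 11 mesothelial markers (the heart's outer lining) summed to 10.6, 18.4, 26.3 and 53.5 CPM in members against 123, 83.5, 427 and 98.5 CPM in 0-UMI fibroblasts. Of them 2, 2, 11 and 9 had UMIs in members, and the defining markers Msln, Upk3b and Muc16 were at 0 in WT and RBM20 het. The 12 endothelial markers, all with UMIs in each library, stood at 912, 670, 473 and 688 CPM against 842, 648, 636 and 796 CPM. The 12 macrophage markers stood at 244, 252, 241 and 285 CPM in members, with 10, 12, 12 and 11 of them detected and Cd163 at 0 in WT and the corrected library. The 15 cardiomyocyte markers stood at 5066, 6712, 7090 and 7629 CPM in members and 7761, 7476, 8701 and 9217 CPM in 0-UMI fibroblasts, with Myh7 at 0 in WT members. The part of any of these in the results below was not tested.

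Few genes separated members from 0-UMI fibroblasts in every library. Of 9636 genes with at least 50 UMIs over the 2 sets in each library, 8 were at least 2-fold higher in members in each of the 4 libraries (0.083%) and 2 at least 2-fold lower (0.0208%). Nothing is read from these counts, since the rule used the same nuclei. The 8 were Postn and Nox4, which the rule fixes (Cilp and Ltbp2, also fixed by it, had too few UMIs), and Mfap4, Meox1, Ccn2, Megf10, Pamr1 and Piezo2, and the 2 were Muc16 and Efemp1. The median log2 ratio over all genes was -0.03, -0.02, 0.00 and -0.03.

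Meox1, a homeobox transcription factor gene known from activated cardiac fibroblasts, stood at 53.1 CPM in members and 10.0 in 0-UMI fibroblasts of WT, 39.3 and 5.96 in RBM20 het, 105 and 33.4 in RBM20 homo, and 50.5 and 19.5 in the corrected library. The ratios were 5.30 [2.97 to 9.11], 6.60 [3.96 to 11.0], 3.13 [2.54 to 3.90] and 2.59 [1.73 to 3.76]. Both sets of RBM20 homo were above the same set of any other library. Ccn2 encodes a connective tissue growth factor of the matrix and is a common readout of TGF-beta and mechanical signals. It stood at 109 and 24.9 CPM in WT, 67.6 and 26.6 in RBM20 het, 316 and 127 in RBM20 homo, and 49.0 and 20.1 in the corrected library. Its ratios were 4.36, 2.54, 2.49 [2.24 to 2.79] and 2.44. Here the 0-UMI fibroblasts of RBM20 homo, at 127 CPM, stood above the members of RBM20 het and the corrected library and near those of WT, whose 109 CPM rests on 41 UMIs.

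Mfap4, which encodes a microfibril-associated protein of elastic fibres, stood at 133 and 27.9 CPM in WT, 61.5 and 20.1 in RBM20 het, 159 and 65.8 in RBM20 homo, and 71.3 and 20.6 in the corrected library. Its ratios were 4.75, 3.06, 2.41 and 3.46, and only the RBM20 het members, at 61.5 CPM, lay below the highest 0-UMI value. Piezo2, a stretch-gated ion channel gene, had ratios of 3.51, 3.58, 2.09 and 3.14. Megf10 had ratios of 4.53, 3.26, 2.24 and 3.23. Pamr1 was the only one of these 6 genes with its highest ratio in RBM20 homo, where it was 3.95, against 2.89, 2.34 and 2.40.

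The next genes by the same ranking fell short of 2-fold in at least 1 library. Itgbl1, which encodes a secreted integrin-like protein, stood at 1172, 1658, 2516 and 1267 CPM in members against 493, 896, 1343 and 670 CPM in 0-UMI fibroblasts. Adamtsl2, a regulator of microfibrils, stood at 63.7, 102, 327 and 146 CPM against 24.5, 43.3, 182 and 65.4 CPM. Both genes were higher in the 0-UMI fibroblasts of RBM20 homo than in the members of WT. Dkk3, a secreted Wnt-pathway protein gene, had ratios of 9.43, 4.53, 1.67 and 3.14. P3h2, a collagen prolyl hydroxylase gene, had 6.61, 1.86, 1.71 and 2.48, and Aspn, the matrix proteoglycan asporin, had 2.26, 1.49, 1.67 and 1.71. Scml4, Lhfpl2, Tanc2 and Mical2 had ratios between 1.45 and 3.17.

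**Figure D4:**
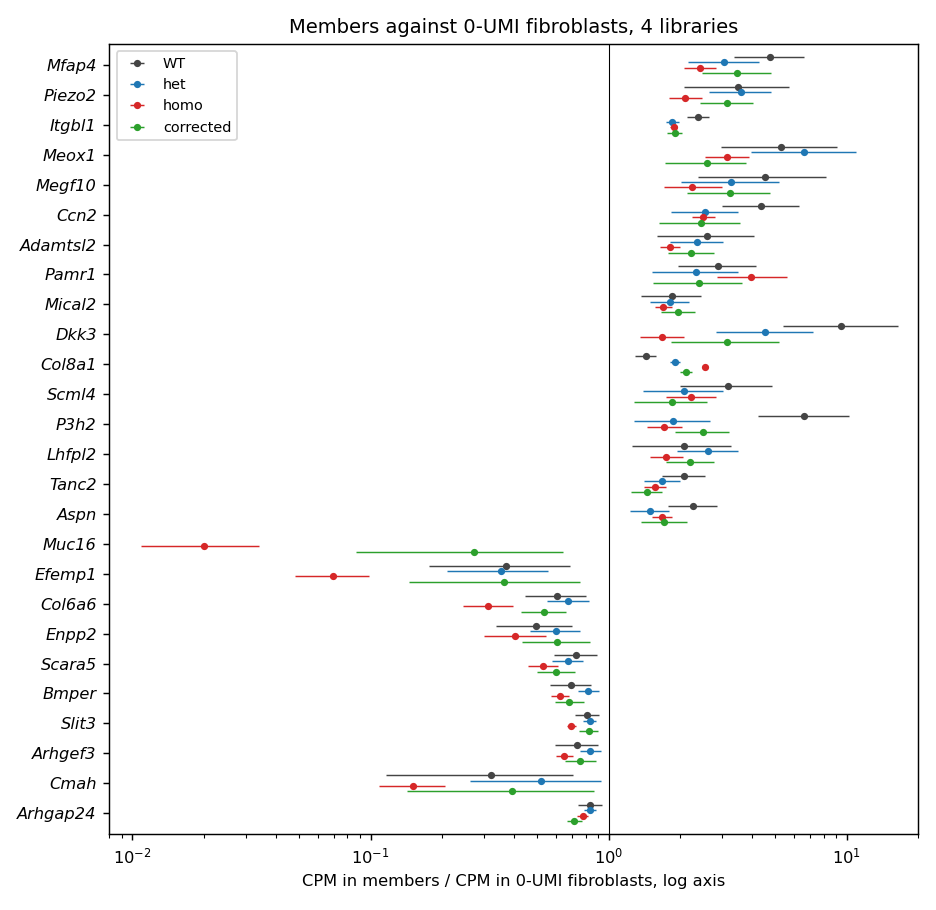
Ratio of CPM in members to CPM in 0-UMI fibroblasts (x axis, log scale, with 95% intervals of counting error) for the genes ranked highest and lowest, 1 point per library. Muc16 had 0 UMIs in the members of WT and RBM20 het and has no point there, and Meox1 lay between 2.59 and 6.60.

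Among the genes ranked lowest in members, only Muc16 and Efemp1 were at least 2-fold lower in every library. Muc16, a mesothelial mucin gene, stood at 0, 0, 2.23 and 7.43 CPM in members and 34.5, 22.5, 111 and 27.4 CPM in 0-UMI fibroblasts. Efemp1, which encodes fibulin-3, stood at 26.5, 23.4, 5.89 and 10.4 CPM against 71.6, 66.4, 84.4 and 28.6 CPM, so that the RBM20 homo ratio of 0.0699 was the lowest. Col6a6, a collagen VI chain gene of resting interstitial fibroblasts, stood at 130, 128, 18.3 and 131 CPM against 215, 189, 58.6 and 244 CPM. It did not stand for its list, whose 18 measured genes had median log2 ratios of -0.03, 0.14, 0.15 and 0.04. The scavenger receptor gene Scara5 had ratios of 0.731, 0.675, 0.531 and 0.604, and Enpp2, which encodes autotaxin, had 0.494, 0.599, 0.405 and 0.609. Cmah, Bmper, Slit3, Arhgef3 and Arhgap24 had ratios from 0.15 to 0.839.

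Matrix genes are given by list, and none of these lists had a median ratio of 2-fold in any library. Of 5 measured fibrillar collagen genes of 7, none was 2-fold higher in all 4 libraries, and the median log2 ratio was -0.25, 0.12, 0.75 and 0.11. Col1a1 stood at 82.2, 61.5, 209 and 90.6 CPM in members and 52.9, 42.9, 112 and 83.8 CPM in 0-UMI fibroblasts. Col8a1, the network-forming collagen VIII chain of the subendothelial and stressed matrix, stood at 1231, 2158, 3965 and 2129 CPM against 861, 1136, 1565 and 1009 CPM, and its ratio was highest in RBM20 homo at 2.53 [2.46 to 2.61] and lowest in WT at 1.43 [1.30 to 1.57]. Over 17 measured genes of the other 28 collagens the medians were 0.11, 0.24, 0.24 and 0.14, and over 20 of 23 collagen processing genes -0.04, 0.17, 0.27 and -0.03.

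Of 30 matricellular genes 18 were measured in every library, with medians of 0.25, 0.47, 0.47 and 0.18, and Ccn2 alone passed 2-fold in all 4. Of 15 elastic fibre genes Mfap4 passed upward and Efemp1 downward, with medians of 0.22, 0.16, 0.17 and 0.13. Elastin itself (Eln) stood at 401, 166, 172 and 658 CPM in members and 145, 124, 171 and 460 CPM in 0-UMI fibroblasts. Its ratio was 2.77 in WT and 1.01 [0.906 to 1.12] in RBM20 homo. The 26 measured TGF-beta genes of 31 had medians of 0.03, 0.07, 0.29 and 0.18 with none past 2-fold in all 4. Of 25 measured transcription factor genes linked to activation Meox1 alone passed, with medians of 0.00, 0.14, 0.11 and 0.01. The 18 resting interstitial fibroblast genes had medians of -0.03, 0.14, 0.15 and 0.04, near those of all genes.

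The contractile list did not separate the sets. Of 16 genes 10 were measured and none passed 2-fold in all libraries, with medians of 0.15, -0.12, -0.04 and 0.24. Acta2, Tagln and Cnn1, the genes that define a myofibroblast, were too low to measure, and Acta2 stood at 7.96, 13.5, 5.26 and 10.4 CPM in members. Tpm1 had ratios of 0.71, 0.82, 0.78 and 0.91 and Palld of 0.53, 0.81, 0.67 and 0.75. Of 25 cell cycle genes 3 were measured and none passed 2-fold.

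Some genes were too low to measure in the small sets but were seen in RBM20 homo, and they were listed after their values were known. There, Ddah1, which encodes an enzyme that breaks down methylated arginine, stood at 56.4 CPM in members and 8.93 in 0-UMI fibroblasts, and Thbs4, which encodes thrombospondin-4, at 42.5 and 8.27. Col12a1, a fibril-associated collagen gene, stood at 48.7 and 11.6 CPM, Tnc (tenascin-C) at 17.5 and 3.97, and Cthrc1, a secreted gene of activated fibroblasts, at 11.8 and 0.662. In the members of the corrected library Ddah1 and Thbs4 each stood at 14.9 CPM, from 10 UMIs each, and both had 0 UMIs in WT members.

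Nuclei just outside and just inside the threshold are given once. In RBM20 homo, the 470 nuclei with exactly 2 rule UMIs had Col8a1 at 2920 CPM and the 316 with exactly 3 had it at 3064 CPM. Meox1 stood at 58.4 and 81.4 CPM in these nuclei. In WT the 133 and 38 nuclei had Col8a1 at 1115 and 1248 CPM, in RBM20 het the 174 and 102 nuclei had 1318 and 1376 CPM, and in the corrected library the 196 and 95 nuclei had 1618 and 1401 CPM.

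The members of RBM20 homo were then compared with those of WT, with the same ratio in 0-UMI fibroblasts beside it. Of 1506 genes measured in members, 52 were at least 2-fold higher in RBM20 homo (3.45%) and 41 at least 2-fold lower (2.72%), with a median log2 ratio of -0.04. These counts depend on the minimum: with 50 UMIs needed only in the library of higher CPM they were 1298 and 67, and thinned to 1500 UMIs 1 and 4. Only 94 WT nuclei stand behind this, and the makeup by leading gene and the pericyte markers differed between the sets as described above. Col8a1, at 1231 and 3965 CPM in WT and RBM20 homo members, was 3.22 times higher [2.94 to 3.54], and in 0-UMI fibroblasts it was 1.82 times higher. Ccn2 was 2.91 times higher in members [2.13 to 4.06] and 5.08 times in 0-UMI fibroblasts, and Col1a1 2.54 times [1.78 to 3.75] and 2.12 times. Adamtsl2 was 5.14 times higher [3.45 to 8.04] in members and 7.41 times in 0-UMI fibroblasts. The rule genes aside, these matrix genes were thus higher in RBM20 homo in both sets of fibroblast nuclei.

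By rank, the genes highest in RBM20 homo against WT members included Nppa, Ddah1, Angptl7, Klhl29, Thbs4, Iigp1 and Dclk3. Klhl29 stood at 58.4, 138, 397 and 81.7 CPM in members of the 4 libraries and was 6.80 times higher in RBM20 homo than in WT [4.48 to 10.9]. It was 3.47 times higher in 0-UMI fibroblasts. Ddah1 had 0 UMIs in WT members and 56.4 CPM in RBM20 homo members, which is at least 7.09-fold higher against a limit of 3 counts. On the same limit Thbs4 was at least 5.35-fold higher. Nppa, the atrial natriuretic peptide gene of cardiomyocytes, stood at 0, 35.7, 515 and 8.91 CPM in members and 5.76, 14.99, 534 and 25.7 CPM in 0-UMI fibroblasts, so both sets of RBM20 homo held a similar level. Of the genes listed, Nppa and Klhl29 passed the minimum used for the counts above, though Nppa had 0 UMIs in WT members. The others rest on 3 or fewer UMIs in WT members. Whether the Nppa RNA came from the fibroblasts was not tested.

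The genes lowest in RBM20 homo members against WT included Mdga2, Gfra1, Nkain2, Adamtsl3, Abcc9, Slc24a3 and Mrvi1, of which Gfra1, Slc24a3 and Mrvi1 were under the minimum used for the counts. Gfra1, the GDNF co-receptor gene of resting interstitial fibroblasts, stood at 233, 279, 22.9 and 186 CPM in members and 374, 317, 48.6 and 215 CPM in 0-UMI fibroblasts. It was 10.2-fold lower in RBM20 homo members than in WT members [7.71 to 13.4] and 7.68-fold lower in 0-UMI fibroblasts. Adamtsl3, a secreted ADAMTS-like protein gene, was 5.36-fold lower in members and 9.69-fold lower in 0-UMI fibroblasts. Abcc9 stood at 472, 299, 102 and 579 CPM in members and was 4.64-fold lower in RBM20 homo, whereas in 0-UMI fibroblasts it was 1.22 times higher. The summed pericyte markers, at 1541 CPM in WT members and 461 CPM in RBM20 homo members, moved the same way as Abcc9. With the nuclei left out that had at least 3 UMIs of the 7 markers of other types, an alternative added after seeing the data, the log2 ratio of RBM20 homo to WT members went from -4.04 to -0.20 for Mdga2, from -2.21 to -1.21 for Abcc9 (itself among the 7) and from -2.36 to -1.70 for Mrvi1. It went from -2.70 to -2.76 for Nkain2, from -2.39 to -2.32 for Slc24a3 and from -3.35 to -3.50 for Gfra1. The values of Gfra1, Nkain2 and Slc24a3 moved by less than that of Mdga2, and the part of those nuclei in the lower levels was not tested.

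By list, RBM20 homo members against WT members had Col1a1 past 2-fold of 3 measured fibrillar collagens (median log2 ratio 0.55), and Col4a3 and Col8a1 of 8 other collagens (0.79). Ccn2 and Vcan were past 2-fold and Tnxb was at most 0.5 times the WT level among 10 matricellular genes (0.28). Fbln2 and Mfap5 were higher and Eln lower among 8 elastic fibre genes (0.11). Plod2, a lysyl hydroxylase gene of collagen crosslinking, was past 2-fold of 5 collagen processing genes (0.31). Of 11 TGF-beta genes Itgb5 passed (0.10), and none of 6 contractile genes did (-0.12). Of 7 measured resting interstitial fibroblast genes C7 was past 2-fold higher and none was past 2-fold lower (-0.08), with Gfra1 and Col6a6 under the minimum. Among 8 proteases and inhibitors Adamtsl2 was higher and Adamts12, Adamtsl3 and Htra3 were lower (-0.82). All 3 measured fibrillar collagens were higher, and the protease list had 1 of 8 higher. The median log2 ratio over all genes measured was -0.04, and nothing is read from counts this small.

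The corrected library was compared with RBM20 homo, the genotype it was made from. Of 2791 genes measured in members, 62 were at least 2-fold higher in the corrected library (2.22%) and 56 at least 2-fold lower (2.01%), with a median log2 ratio of 0.02. With 50 UMIs needed only in the library of higher CPM the counts were 95 and 879, and thinned 7 and 5. This comparison shares the RBM20 homo members with the one above, so the 2 sets of values are not independent. Ccn2, at 316 CPM in RBM20 homo and 49.0 in corrected members, was 6.45-fold lower [4.57 to 9.39], and after thinning to 1500 UMIs its log2 ratio was -1.72 in place of -2.69. Col1a1 was 2.30-fold lower [1.78 to 3.03], Meox1 2.07-fold lower [1.47 to 3.02], Mfap4 2.22-fold lower and Mfap5 2.51-fold lower. Col8a1 was 1.86-fold lower [1.77 to 1.97] and at 2129 CPM lay close to RBM20 het at 2158 CPM and above WT at 1231 CPM. Gfra1 was 8.10 times higher [6.32 to 10.4] and Col6a6 7.14 times higher [5.34 to 9.50]. Both are on the resting interstitial list, of which 12 genes were measured, 6 were higher, C7 and Mgp were past 2-fold lower, and the median log2 ratio was 0.09.

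Some genes of the corrected members stood apart from all 3 other libraries. Npas2, a clock transcription factor gene, stood at 29.2, 14.8, 14.3 and 137 CPM in members and 23.7, 19.6, 17.9 and 138 CPM in 0-UMI fibroblasts. Its partner gene in the clock, Arntl, stood at 10.6, 7.38, 17.05 and 86.2 CPM in members and 10.0, 5.28, 7.61 and 74.7 CPM in 0-UMI fibroblasts. In both sets the corrected library was highest for both genes. The hour at which hearts were taken is not given in the sources used here, so genotype and hour cannot be told apart. Col5a3, a minor fibrillar collagen gene, stood at 101, 70.1, 28.2 and 247 CPM in members and was 8.75 times higher in the corrected library than in RBM20 homo [7.03 to 10.9]. Eln was 3.82 times higher [3.41 to 4.27]. By list, 4 of 5 measured pericyte genes, Rgs5, Abcc9 and Notch3 among them, were past 2-fold in corrected against RBM20 homo members, with a median log2 ratio of 1.99.

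Among members with Nox4 UMIs only, where the same gene did the choosing in each library, genes described above for all members were set side by side. The genes were picked for their levels in all members, of which these are a subset, so the values are a description. These members numbered 55, 127, 272 and 91, and their pericyte markers summed to 619, 406, 308 and 786 CPM. Col8a1 stood at 1381, 1687, 2881 and 1775 CPM in them, Ccn2 at 110, 50.5, 227 and 44.0 CPM, and Col1a1 at 57.1, 50.5, 136 and 94.9 CPM. Adamtsl2 stood at 66.7, 88.3, 352 and 169 CPM and Klhl29 at 33.3, 105, 325 and 47.4 CPM. RBM20 homo was highest for all 5 genes. Gfra1 stood at 333, 374, 38.2 and 261 CPM and was lowest in RBM20 homo. Meox1 stood at 38.1, 12.6, 44.7 and 50.8 CPM, where RBM20 homo was not the highest.

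Within RBM20 homo, Postn-led and Nox4-led members differed in several genes, picked after their values were known. Thbs4 stood at 70.1 CPM in Postn-led and 25.9 CPM in Nox4-led members, Ddah1 at 95.6 and 36.3, Meox1 at 169 and 65.6, and Col12a1 at 78.6 and 32.3. Col8a1 stood at 4693 CPM in Postn-led members and at 2881 CPM in members with Nox4 only. All are nuclei of 1 library, chosen by their counts, so these values have no replicate error.

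**Figure D5:**
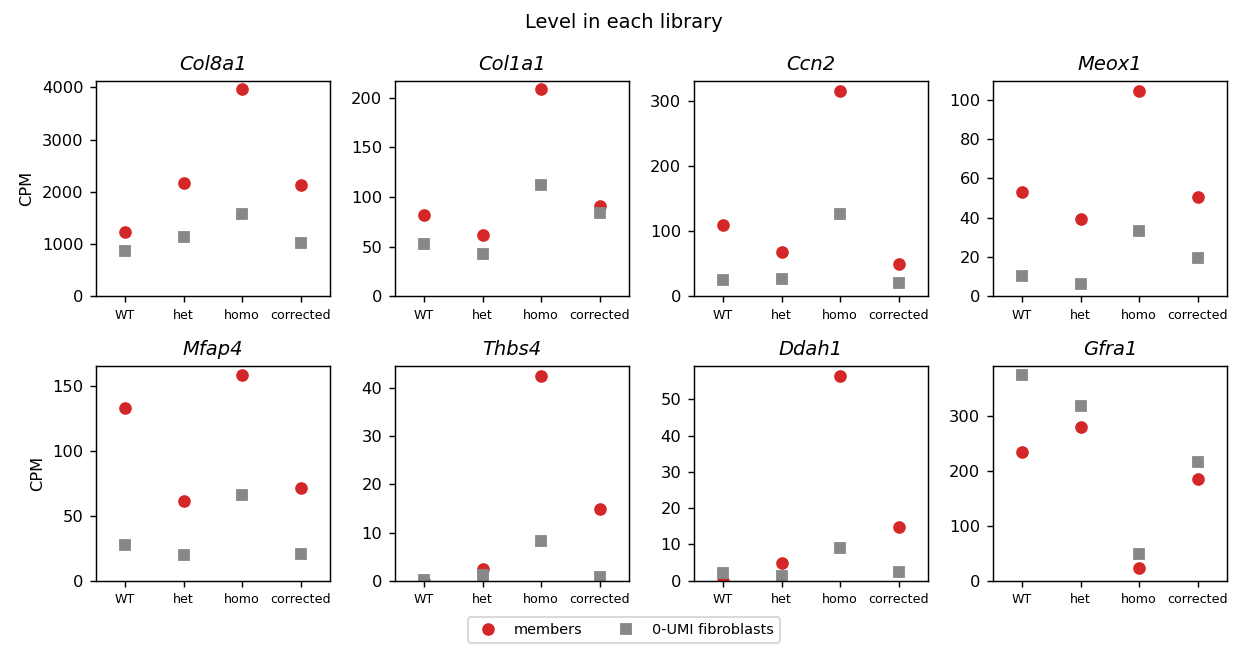
CPM of 8 genes (y axes) in members (circles) and 0-UMI fibroblasts (squares) of each library. Ccn2 stood at 316 CPM in RBM20 homo members and 127 CPM in its 0-UMI fibroblasts, and Gfra1 was lowest in RBM20 homo in both sets.

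RBM20 het members were set beside WT members in the same way. Of 1525 genes measured, 15 were at least 2-fold higher than in WT members (0.984%) and 5 at least 2-fold lower (0.328%), with a median log2 ratio of 0.01. Spon1, an adhesive matrix protein gene, stood at 212 CPM in WT and 675 CPM in RBM20 het members, 3.18 times higher [2.51 to 4.07]. C7, a complement gene of resting fibroblasts, stood at 286 and 649 CPM, 2.27 times higher [1.84 to 2.81], and it was 3.05 times higher in 0-UMI fibroblasts. Eln stood at 401 and 166 CPM, 2.41-fold lower [1.90 to 3.07]. Reln, a gene of lymphatic vessels, stood at 23.9 and 140 CPM, and after thinning to 1500 UMIs its direction turned (log2 ratio -2.61). Ror1 was the only gene of 3 measured Wnt genes past 2-fold.

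Corrected members were also set beside WT members, a comparison that shares both sets with those above. Of 1514 genes, 16 were at least 2-fold higher (1.06%) and 8 at least 2-fold lower (0.528%), with a median log2 ratio of 0.01. Col8a1 was 1.73 times higher [1.56 to 1.92], Col5a3 2.45 times higher [1.71 to 3.58] and Eln 1.64 times higher [1.36 to 1.99]. Ccn2 stood at 109 CPM in WT and 49.0 CPM in corrected members. Pi16, a gene of adventitial fibroblasts, stood at 393, 348, 495 and 196 CPM in members of the 4 libraries and was lowest in the corrected library. Erbb4, Adgrd1 and Hmcn1 were also lower than in WT members.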

How the data were processed

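Single-nucleus 10x 3′ v3 libraries of total cardiac nuclei were used, 1 per genotype. The labels' protocol also mentions CD45+ immune cells. The authors deposited unnormalized UMI counts, 1 whole number for each gene and barcode. Cell Ranger 6.1.1, Seurat 4 and the build mm10 (GRCm38) are named in the submitters' processing notes, but the headers of the matrices give Cell Ranger 4.0.0. Intron counting and the barcode filter are not given in the sources used here. Members and gene lists were chosen with earlier results of these data known.

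UMIs were summed per set and library and expressed as CPM of non-mitochondrial UMIs (Python 3.11.15, numpy 2.4.6, scipy 1.17.1). Ratios have exact conditional binomial intervals, shares exact Clopper-Pearson intervals, and ratios of shares approximate log-scale intervals, at 95%. A count of 0 was read as a limit of 3 counts. PCR and pooling errors are not covered, and no p-value was computed with 1 library per genotype. Members against 0-UMI fibroblasts used genes with at least 50 UMIs over both sets in each library. Between genotypes a gene was measured when at least 50 UMIs were expected in the smaller sum at the mean CPM. That form was chosen after seeing the data, since requiring 50 UMIs only where the CPM is higher keeps more genes on the larger library's side.

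The genes named were the rule and gate genes, the 16 highest and 10 lowest in members, the 8 and 8 of RBM20 homo against WT, the 5 and 5 of corrected against RBM20 homo, the 4 and 4 of RBM20 het and of corrected against WT, and up to 4 per list. Ranking used whichever interval bound lay nearest to 1 and, between genotypes, asked for 50 UMIs on the side of higher CPM. Mitochondrial, haemoglobin and sex-linked genes, unnamed models and genes over 5 times higher in cardiomyocyte-gate nuclei in both groups were left out. A further set seen in RBM20 homo only was added after seeing the data. Results for some of these genes are not reported here.

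Doublets were not removed. Scrublet (scanpy 1.11.5) scores, at 0.8% per 1000 barcodes, served as an alternative. The code was tested on simulated data. Alternatives were thinning, other thresholds, rule genes, scaling factors, minimum counts and nuclei left out.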

Additional observations from a re-analysis of the deposited data

Results flagged for a closer look

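RNA of 2 features added to the gene list, ABE_C and ABE_N (not defined in the sources used here), was seen in 13 of 191 members of the corrected library (6.81% [3.67 to 11.4]) at a median depth of 3195 UMIs. In the same library it was seen in 2.81% of 0-UMI fibroblasts (median 2305 UMIs), in 3.29% of all fibroblast nuclei and in 39.6% of cardiomyocyte-gate nuclei (median 4585 UMIs). No UMI of either feature was found in members of the other libraries, which allows a UMI to be seen in up to 3.19%, 1.52% and 0.189% of members in WT, RBM20 het and RBM20 homo (3 counts over 94, 198 and 1589 nuclei) and does not limit how many nuclei carried the features. Free RNA as a source was not tested.

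For 10 genes given here the members of RBM20 homo were lower than its 0-UMI fibroblasts and the members of WT were higher than theirs. No share over the 9636 genes measured is given beside them, so nothing is read from their number. These differences between libraries were not tested. The RBM20 homo ratio of members to 0-UMI fibroblasts was 0.204 for Mdga2, 0.585 for Nkain2, 0.489 for Grm7, 0.577 for Hmcn1, 0.225 for Opcml, 0.470 for Kdr, 0.527 for Emcn, 0.155 for Pkhd1l1, 0.196 for Kcnj8 and 0.136 for Myh11. The WT ratios of the same genes lay between 1.64 (Kcnj8) and 2.55 (Nkain2). Kcnj8 is on the pericyte list, Kdr and Emcn on the endothelial list, Pkhd1l1 on the lymphatic list and Myh11 on the smooth muscle list. In WT the sums in members and 0-UMI fibroblasts were 1541 and 1097 CPM (pericyte), 912 and 842 (endothelial) and 286 and 159 (lymphatic). The smooth muscle list went the other way in WT, at 361 CPM in members and 482 CPM in 0-UMI fibroblasts, unlike Myh11. In RBM20 homo the sums were 461 and 1395 CPM (pericyte), 473 and 636 (endothelial), 211 and 254 (lymphatic) and 291 and 602 (smooth muscle).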

How the results depend on the processing

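Shares are given for WT, RBM20 het, RBM20 homo and corrected, followed by the ratios of RBM20 homo to WT and of RBM20 homo to corrected. Thinned to 1500 UMIs they were 1.43%, 2.25%, 25.6% and 1.62% (17.8 and 15.8), and thinned to 1000 UMIs 0.546%, 0.836%, 15.3% and 0.737% (28.1 and 20.8). With at least 2 rule UMIs they were 9.90%, 12.8%, 54.2% and 8.97% (5.48 and 6.04, RBM20 het to WT 1.29), and with at least 5 they were 1.66%, 2.03%, 27.5% and 1.21% (16.6 and 22.8, RBM20 het to WT 1.22). Without Postn in the rule they were 3.05%, 5.71%, 31.8% and 3.41%, and without Nox4 1.003%, 1.41%, 22.6% and 1.27% (22.5 and 17.7). The RBM20 homo share was 38.6% without Cilp and 39.1% without Ltbp2. Over all nuclei kept the shares were 1.001%, 2.06%, 13.8% and 1.28% (13.8 to WT). Chosen after seeing the data, 2 or more rule genes gave 1.05%, 1.82%, 32.5% and 1.81% (31.0 and 17.97), and at least 1 Postn UMI gave 1.48%, 1.51%, 28.0% and 1.46% (18.9 and 19.2, RBM20 het to WT 1.02). Leaving out nuclei with markers of other types gave 44.4% in RBM20 homo and 11.2 times the corrected share. In every setting RBM20 homo had the highest share.

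Counts of genes past 2-fold moved more. They are given as higher and lower for members against 0-UMI fibroblasts (8 and 2 as reported), RBM20 homo to WT (52 and 41), RBM20 het to WT (15 and 5), corrected to RBM20 homo (62 and 56) and corrected to WT (16 and 8). Thinned to 1500 UMIs they were 3 and 6, 1 and 4, 0 and 1, 7 and 5, and 0 and 0, where fewer UMIs leave fewer genes to measure. With no minimum count, members against 0-UMI fibroblasts gave 36 and 447. With a minimum of 20 UMIs, 7 were lower in members, and the genotype counts were 138 and 126, 51 and 30, 145 and 145, and 61 and 47. With members of 2 or more rule genes, 12 were lower than in 0-UMI fibroblasts, and the genotype counts were 11 and 8, 9 and 1, 36 and 21, and 7 and 2. Leaving out nuclei with markers of other types, added after seeing the data, gave 1 lower in members, 34 higher in RBM20 homo than WT, 8 higher in RBM20 het, 36 and 29 for corrected to RBM20 homo, and 13 lower in corrected than WT. With 50 UMIs needed only where the CPM was higher, the genotype counts were 1298 and 67, 72 and 11, 95 and 879, and 65 higher in corrected than WT. RBM20 het to WT gave 9 higher without the highest Scrublet scores, 8 lower with median-of-ratios factors and 8 lower with the mean of CPM per nucleus. Corrected to WT gave 5 lower with trimmed-mean factors.

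Of the named genes between genotypes, 18 moved outside their counting interval and 11 did not when thinned, 13 and 21 with 2 or more rule genes, and 8 and 27 with nuclei of other markers left out, the genes that changed direction aside. All 36 stayed within it under median-of-ratios and trimmed-mean factors. In members against 0-UMI fibroblasts, the median log2 ratio moved by more than its SD over the 4 libraries for 31 genes and not for 57 when thinned, 33 and 81 with 2 or more rule genes, and 6 and 117 with nuclei of other markers left out, and thinning moved 6 of 20 list medians. 2 named genes changed direction. With nuclei of other markers left out, Opcml was -0.30 (log2) in corrected against RBM20 homo. Thinned, Reln was -2.61 (log2) in RBM20 het against WT. No paired analysis was possible because each genotype had 1 library. Depth limits the 94 WT members most, where folds of low genes have wide intervals.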

Other observations

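Some genes were lower in RBM20 homo members than in the 0-UMI fibroblasts of that library. Grip1 stood at 11.3 CPM in members and 209 CPM in 0-UMI fibroblasts, against 26.5 and 47.3 CPM in WT. Gpm6a, a mesothelial marker, stood at 14.2 and 136 CPM, and Npr3, an endocardial marker, at 24.7 and 96.3 CPM. The 8 endocardial markers summed to 244 CPM in RBM20 homo members and 653 CPM in its 0-UMI fibroblasts, whereas in the other libraries members held 321, 238 and 288 CPM and 0-UMI fibroblasts 274, 261 and 318 CPM. Both sets passed the same gate, and the part of other cell types in the 0-UMI fibroblasts was not tested.

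Immediate early genes had medians of members against 0-UMI fibroblasts of -0.32, -0.10, 0.09 and 0.43 on the log2 scale over 8 measured genes. Complement and immune genes had medians of -0.10, -0.10, -0.07 and -0.14 over 18 genes, and the complement gene C7 had ratios of 2.20, 1.64, 0.99 and 2.71.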
